A study of Mus musculus with 2 samples.

Results

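The genes described here are 49 regulators and building blocks of the actin cytoskeleton and of dendritic spines, out of 21474 protein-coding genes in the deposited tables. They were picked by symbol for their known roles and not by their values, but with earlier results of these data known. They comprise 2 actins, 7 genes for proteins that bind actin monomers, 6 for filament severing and its control, 5 for capping, 10 for the Arp2/3 complex with a coronin, 8 for the WAVE complex, 6 myosins and tropomyosins, 3 GTPases and 2 spine side binders. RNA was profiled in 2 pools of 30 Purkinje cells, which are the only neurons that send axons out of the cerebellar cortex, cut from tissue by laser capture. Both pools came from adult male B6CASTF1/J mice, a hybrid of C57Bl and Castaneus, at 14 months, with no treatment and no engineered allele named. The pools form a single group, so no condition was compared and no test between conditions exists. Replicate numbers 1 and 2 in the labels mark them as biological replicates, but the donor identifier is the same. The SD printed throughout (n = 2) is the spread of 2 pools and may be of technical origin.

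Actin is a small globular protein that polymerises into filaments, and filaments fill the heads of dendritic spines, the protrusions on which excitatory synapses sit. Profilins and thymosins hold monomers ready or in reserve, cofilins sever old filaments, capping proteins block fast-growing ends, and the Arp2/3 complex starts new branches when the WAVE complex switches it on under the GTPase Rac1. A Purkinje cell dendrite carries a dense cover of spines that receive parallel fibres, and mutants of several actin regulators are known to disturb those spines in mice.

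The pools held 31503819 and 28709397 expected counts, and the members took 4.73% and 5.40% of them. All 8 Purkinje cell markers were detected in both pools, among them the calmodulin-binding peptide gene Pcp4 at a TPM (transcript abundance per length, scaled to the same sum in each library) of 26704 and 24370. Markers of Bergmann glia, whose processes wrap Purkinje cells, were also present, with 8 of 9 detected and a summed TPM of 2409 in pool 1 and 4250 in pool 2. For granule cells 5 of 6 markers were detected (summed TPM 32.4 and 41.9), for oligodendrocytes 3 of 6 (36.4 and 52.6), for endothelial and mural cells 3 of 7 (21.1 and 15.1) and for microglia 1 of 7 (5.30 and 3.61). None of the 4 smooth muscle markers was detected, with Cnn1 at 0 counts in both pools. Haemoglobin genes stood apart between the pools, with the 5 red blood cell markers summing to 2453 TPM in the first pool and 16.3 in the second. Which cells each transcript below came from was not tested, and in bulk material fewer cells of a type and less RNA per cell cannot be told apart.

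Most of the listed actin genes were expressed. With detection set at a TPM of 1 or more in each pool, 42 of the 49 members were detected in both (85.7%), against 30.3% of all protein-coding genes. Of 116 other actin genes 42.2% were detected in both, so the share of members describes this list and not all actin genes. The median member level, as log2(TPM + 1), was 4.37 ± 0.31 (SD, n = 2), beside 0.29 over all protein-coding genes and 2.61 over the 6506 detected ones. By mean TPM, 10 members lay at 100 or more, 24 from 10 to under 100, 9 from 1 to under 10 and 6 under 1. Dbn1 passed the threshold in pool 2 only. The members under it in both pools were Arpc1b, Gsn, Wasf3, Limk1, Ssh2 and Add2. Ordered by mean TPM, 11 of the 48 neighbouring members were separated, meaning that every pool value of the higher gene lay above every pool value of the lower. The top of the order was the clearest, with Actb above Tmsb4x, Tmsb4x above Actr2, Actr2 above Actg1 and Actg1 above Cfl1. No neighbouring members from Dstn down to Add1 were separated.

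**Figure D1:**
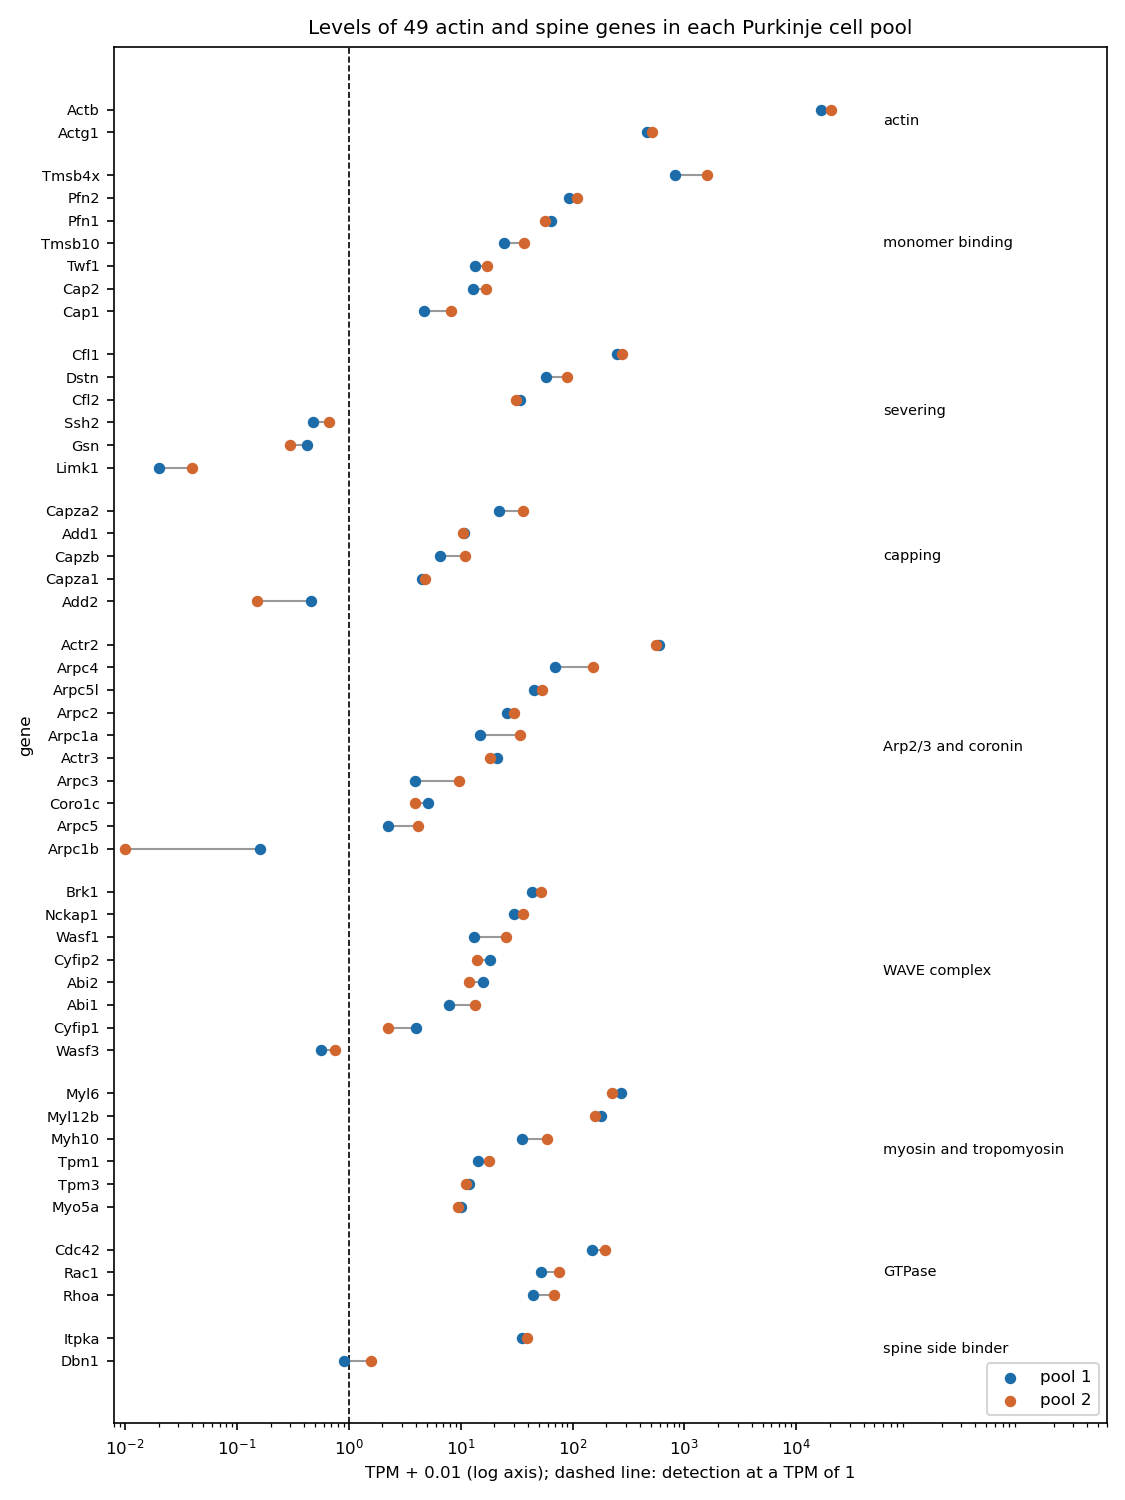
TPM + 0.01 on a log axis for each of the 49 genes (rows, grouped by role) in pool 1 (blue) and pool 2 (orange), with a grey line joining the pools and a dashed line at a TPM of 1. Actb sits far to the right of every other gene, and the points of Gsn, Limk1, Ssh2, Add2, Arpc1b and Wasf3 all fall left of the dashed line.

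The actins were represented almost entirely by Actb, cytoplasmic beta-actin (ENSMUSG00000029580.10, mm10 chr5:142903115-142906754), which reached a TPM of 16767 (pool 1) and 20444 (pool 2) from 1240079 and 1302091 counts. Its mean of 18605 ± 2600.0 (SD, n = 2) placed it at rank 3 of all protein-coding genes, and it made up 82.3% and 81.4% of the summed TPM of all members. Actg1, cytoplasmic gamma-actin (ENSMUSG00000062825.11, chr11:120345690-120348542), had 465 and 511. Both pools thus showed the same order, with Actb 36.1 times Actg1 in pool 1 and 40.0 times in pool 2, a share of 97.4 ± 0.183% of the pair. These proteins are nearly identical, but the transcripts are not. No 100-base window of the longest coding transcript of Actb or Actg1 occurred in the other, and 1.10% of Actb windows occurred in any other gene. Of Actg1 windows 51.1% recurred in other genes, whose counts summed to 288 and 189 beside 32633 and 30909 for Actg1.

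Of the 5 other actin genes, 1 was detected. Acta1, skeletal muscle alpha-actin, had a TPM of 22.9 and then 15.5. The smooth muscle gene Acta2 had 0.35 and 0, and the cardiac gene Actc1 had 0.15 and 0.10. Acta1 was therefore the sole muscle-type actin above the threshold, at a level far below Actg1 in both pools.

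Among genes for monomer-binding proteins all 7 were detected in both pools. Tmsb4x, thymosin beta 4, the main buffer of free actin monomers (ENSMUSG00000049775.12, chrX:167207093-167209315), was the highest member after Actb, with a TPM of 831 and 1577 from 22010 and 36100 counts. Its relative Tmsb10 had 24.3 and 36.5. Tmsb4x exceeded Tmsb10 by 34.2 times in pool 1 and 43.2 times in pool 2 and held 97.5 ± 0.409% of the pair. Tmsb4x is also abundant in microglia, whose 7 markers summed to a TPM of 5.30 and 3.61. Of the 3 microglial markers at a TPM of 1 or more in a pool, 1 was higher in pool 2, P2ry12 at 0.58 and 1.15. Tyrobp had 2.22 and 1.11, and C1qb 1.29 and 0.35. The part of microglial RNA in the Tmsb4x level was not tested. Its transcripts were split alike in both pools, with Tmsb4x-201 at 75.9% and 79.2% of the gene's TPM and Tmsb4x-203, which starts coding further upstream, at 24.1% and 20.8%. The first coding exons of the dominant transcripts show how far apart the paired genes are for read counting. They are printed 5′ to 3′ from GENCODE M21 on mm10 (minus strand, chrX:167207937-167208036 and chr6:72957913-72958012), with capitals at the 26 of 100 bases that differ.
Tmsb4x: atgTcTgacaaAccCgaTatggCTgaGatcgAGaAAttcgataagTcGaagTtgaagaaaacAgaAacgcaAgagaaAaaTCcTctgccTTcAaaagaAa
Tmsb10: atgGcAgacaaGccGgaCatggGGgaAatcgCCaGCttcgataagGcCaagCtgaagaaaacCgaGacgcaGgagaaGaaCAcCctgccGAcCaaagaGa
The exons matched at 74.0% of their bases, and no 100-base window was common to the transcripts of the pair. Of Tmsb10 windows 21.5% recurred in other genes, which held 2.94 and 5.46 counts.

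The profilins, which feed monomers to growing ends, were more evenly divided by TPM than the thymosins. Pfn2, the form typical of neurons, had a TPM of 92.5 and 110 (mean 101 ± 12.3). Pfn1, the widely expressed form, had 63.8 and 56.7. Pfn2 was higher in both pools and held 62.6 ± 4.77% of the pair by TPM and 78.6% and 83.2% by counts. Pfn1-204, a transcript annotated as a target of nonsense-mediated decay, took 58.3% and 63.9% of Pfn1, and transcripts of protein-coding type alone gave Pfn1 a TPM of 26.6 and 20.5. Of the cyclase-associated proteins, which help cofilin and recharge monomers, Cap2 had 12.8 and 16.9 and Cap1 4.69 and 8.21, so that Cap2 led with 70.2 ± 4.20%. Twf1, twinfilin 1, which binds monomers and capping protein, had 13.4 and 17.1. Each of these was higher in pool 2 apart from Pfn1.

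Among severing genes the cofilin family was detected, while gelsolin and the cofilin kinase Limk1 were under the threshold. Cfl1, non-muscle cofilin (ENSMUSG00000056201.6, chr19:5490455-5495201), had a TPM of 248 and 279 (mean 263 ± 22.0). Dstn, destrin or ADF, had 58.3 and 90.0, and Cfl2, the muscle-type cofilin, had 33.6 and 31.1. In both pools the order was Cfl1, then Dstn, then Cfl2, with shares of the family's TPM of 71.3 ± 2.28%, 19.8 ± 3.78% and 8.83 ± 1.50%. Cfl1 led less by counts (56.4% and 53.8%), since its transcript is shorter. The family summed to a TPM of 340 and 400.

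Gsn, gelsolin, a calcium-activated severing protein, had a TPM of 0.41 and 0.29 from 37 and 26 counts. Limk1, LIM kinase 1, which phosphorylates and inactivates cofilin, had 0.01 and 0.03 from 1 and 3 counts. Ssh2, a slingshot phosphatase that reverses that phosphorylation, had 0.47 and 0.66 from 71 and 92 counts. Limk2, the other LIM kinase that inactivates cofilin, named here after its value was seen, had a mean TPM of 5.98 ± 0.0283 (SD, n = 2) and was detected in both pools. Gsn, Limk1 and Ssh2 stayed under the threshold in both pools, and Limk1 was the lowest of all 49 members by mean TPM.

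Of 15 other genes for severing, capping and monomer binding, 5 were detected in both pools (33.3%, against 30.3% of protein-coding genes). The highest was Wdr1, also called AIP1, a partner of cofilin in disassembly, at a TPM of 55.7 and 70.6. Flii, flightless, of the gelsolin family, had 13.2 and 27.7, and Svil, supervillin, had 9.93 and 7.05. The gelsolin relatives Flii and Svil thus lay above Gsn in both pools.

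Capping genes were moderate. CapZ is a dimer of an alpha and a beta chain that closes the growing end. Capza2 had a TPM of 21.9 and 36.3 and Capza1 4.53 and 4.75, giving Capza2 85.7 ± 3.92% of the alpha chains. For Capza1 63.1% of the windows recurred in other genes, most of them in a pseudogene that held 40.04 and 52.8 counts beside 569 and 514 for Capza1. Capzb, the beta chain, had 6.51 and 11.0. Add1, alpha-adducin, which caps filaments of the membrane skeleton, had 10.7 and 10.6 and was the member nearest to equal between the pools in TPM. Most of it was assigned to Add1-213 (86.2% and 91.7%), a transcript of 2370 bases at the 3′ end of the gene with 479 annotated coding bases. Add2, beta-adducin, had 0.45 and 0.14 from 55 and 15 counts, so Add1 held 97.3 ± 1.93% of this pair. Add3, another adducin gene outside the members and named here after its value was seen, had 14.35 and 17.22. It lay above Add1 in both pools and is not in that share.

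The Arp2/3 complex contains its subunits in equal number, yet their transcripts spanned a wide range of levels. Actr2, which encodes Arp2 (ENSMUSG00000020152.7, chr11:20062304-20112913), was the third highest member, with a TPM of 597 and 557 from 85610 and 68742 counts. Actr3, which encodes Arp3, had 21.0 and 18.4. The ratio of Actr2 to Actr3 was 28.4 in pool 1 and 30.2 in pool 2. The Actr2 transcript shared no window with another gene and a single transcript, Actr2-201 of protein-coding type, held 99.9% of its TPM in pool 1. For Actr3 22.4% of windows recurred in a processed pseudogene and another gene, which held 92.6 and 109 counts beside 2086 and 1583 for Actr3.

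The other subunits lay below Actr2, some of them above Actr3 and some under it. Arpc4, which joins Arpc2 in the core of the complex (ENSMUSG00000079426.8, chr6:113378115-113390448), had a TPM of 69.8 and 153. Arpc2 had 26.2 and 30.3. Arpc3, a small subunit next to Arp3, had 3.90 and 9.58 from only 120 and 245 counts. For the WD-repeat subunit Arpc1a had 14.9 and 34.2, while Arpc1b had 0.15 and 0 from 8 and 0 counts. Arpc1a thus held 99.5 ± 0.705% of that pair, and 0 of 1773 counts in pool 2 allowed Arpc1b up to 0.169% (a limit for counting error alone). For the smallest subunit Arpc5l had 45.6 and 53.1 and Arpc5 2.23 and 4.13, so that Arpc5l held 94.1 ± 1.81%. Both leading isoforms were the same in each pool.

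The level of Arpc5l carried a limit of annotation. Its reads were assigned to transcripts typed as non-coding or as decay targets, led by the processed transcript Arpc5l-204 with 62.3% and 72.7%. Transcripts of protein-coding type gave Arpc5l a TPM of 0.21 and 0, and gave Arpc5 2.23 and 4.13. By these transcripts alone the order of the pair was thus reversed in both pools. The gene's exons also overlap those of the ribosomal gene Rpl35 on the opposite strand, which had a TPM of 925 and 945. Whether counting used strand is not stated in the sources here. Coro1c, coronin 1C, which debranches Arp2/3 networks, had 5.13 and 3.93, and all of it was assigned to transcripts not typed as protein-coding, Coro1c-205 with 94.2% and 96.6%.

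Among 27 other genes of branching and nucleation 8 were detected in both pools (29.6%, beside a background of 30.3%). The highest were Coro2b, a neuronal coronin, at a TPM of 15.9 and 24.7, the nucleator Spire1 at 5.92 and 9.76, and Wasl, which encodes N-WASP, the other main Arp2/3 activator, at 5.75 and 7.95. All 3 lay below Arpc2 and far below Actr2 in both pools.

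Every component of the WAVE complex had a detected gene, and a single paralog predominated in the WASF and CYFIP families. Wasf1, the WAVE protein typical of brain, had a TPM of 13.1 and 25.2, and Wasf3 had 0.56 and 0.75, leaving Wasf1 with 96.5 ± 0.855% of this pair. Cyfip2 had 18.4 and 14.1 and Cyfip1 3.99 and 2.23, and Cyfip2 held 84.2 ± 2.94%. The CYFIP proteins are the arm of the complex that binds Rac1. For Cyfip1 20.0% of windows recurred in other genes, mainly its opposite-strand neighbour Nipa2, which held 328 and 470 counts beside 721 and 346. Nckap1, the partner of CYFIP in that arm, had 30.2 and 36.4, and Brk1, the smallest subunit, had 43.5 and 52.4.

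Among the families of listed members, the ABI adaptors were the one in which the leader changed. Abi2 had a TPM of 15.9 and 11.9. Abi1 had 7.90 and 13.5. Abi2 led in pool 1 with 66.8% of the pair and Abi1 in pool 2 with 53.2%, so the mean Abi2 share of 56.8 ± 14.1% had the widest spread of any family. By counts Abi2 led in both pools (77.1% and 59.3%). Within Abi1 the share of the leading transcript Abi1-212 also moved, from 82.1% to 40.9%, from 848 and 1256 counts for the gene.

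**Figure D2:**
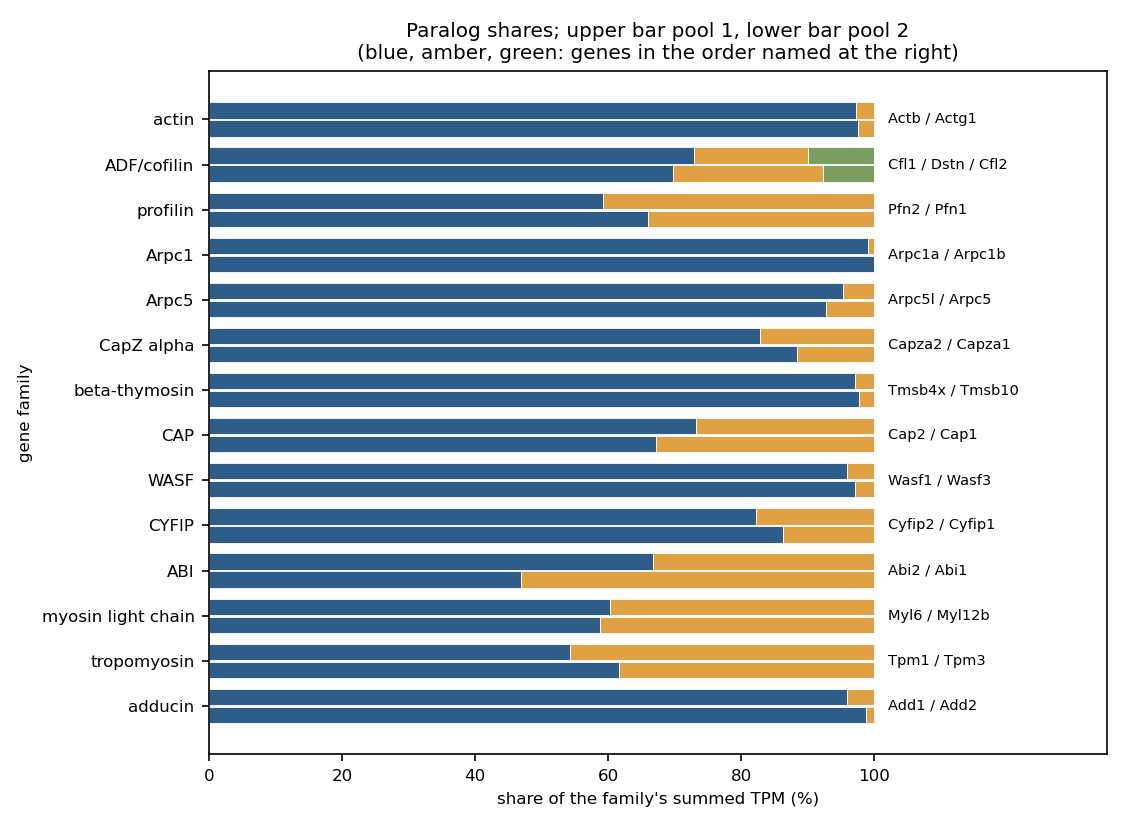
Share of each paralog in the summed TPM of the listed members of its family (percent), with pool 1 as the upper and pool 2 as the lower bar of each family and colours in the order of the names at the right. The first-named gene fills over 90% in the actin, Arpc1, Arpc5, beta-thymosin, WASF and adducin families in both pools, while the ABI bars cross the middle between the pools. The myosin light chain bars set Myl6 beside Myl12b, which are different light chains.

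Over all 14 families, each made of listed members only, the leader by mean TPM was the same in each pool in 13, the exception being ABI. The leader by mean share of counts was the same as by TPM in 13 as well, and there the exception was the myosin light chains. That pair joins an essential and a regulatory light chain, which are different subunits, so its share is not a choice between paralogs. Paralogs outside the list would alter these leaders. Tpm2 lay above Tpm1 in pool 1 and below it in pool 2, and Add3 lay above Add1 in both pools.

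Myosin and tropomyosin genes were all detected. Myl6, the essential light chain of non-muscle myosin (ENSMUSG00000090841.1, chr10:128490860-128494145), had a TPM of 273 and 226, and the regulatory light chain gene Myl12b had 179 and 158. Myl6 was higher per length in both pools (59.6 ± 1.09% of their sum), whereas Myl12b had more counts (57.2% and 58.7%). For Myl6 7.90% of windows of the longest coding transcript recurred in other genes, but 26.5% of those of Myl6-201, which held all of the gene's TPM. The other genes held 1728 and 1374 counts beside 6266 and 4472. Myo5a, myosin Va, the motor that carries endoplasmic reticulum into Purkinje spines in rodents, had 10.1 and 9.39.

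Myh10, the heavy chain of non-muscle myosin IIB, had a TPM of 35.7 and 59.3, but most of it belonged to a short transcript. Myh10-206, a processed transcript of 1811 bases at the 3′ end of the gene (chr11:68814362-68816544), held 91.3% and 95.0% of the gene's TPM and 70.1% and 83.2% of its counts. Transcripts of protein-coding type gave Myh10 a TPM of 3.09 and 2.50. The pools were thus ordered one way by all transcripts, pool 2 higher, and the other way by coding ones.

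The tropomyosins, which line filaments and set which other proteins bind them, were close to each other in level. Tpm1 had a TPM of 14.1 and 18.1 and Tpm3 11.9 and 11.3, so Tpm1 held 57.9 ± 5.22% of this pair. Tpm2, which is not a member and not in that share, had 16.3 and 14.3. It lay above Tpm3 in both pools and above Tpm1 in pool 1 only. These genes make long and short forms from different first exons. In Tpm1 the transcripts that begin coding at the upstream exon held 81.3% and 69.0% of the TPM and those from the internal exon 15.1% and 31.0%. In Tpm3 the transcripts from the internal first coding exon held 81.8% and 85.8%, and the rest was of transcripts with no coding sequence. The upstream start thus led in Tpm1 and the internal start in Tpm3 in both pools.

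Of 13 other myosin and tropomyosin genes 6 were detected in both pools (46.2%, against 30.3% of protein-coding genes). Myl12a, the neighbour and near copy of Myl12b, had a TPM of 26.0 and 23.0. Myo10, a motor of filopodia, had 20.8 and 21.2, and Tpm2 had 16.3 and 14.3. Myo10 and Myl12a lay above Myo5a in both pools.

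All 3 GTPases, the switches above these machines, were detected at high levels. Cdc42, which acts on filopodia and N-WASP (ENSMUSG00000006699.13, chr4:137319696-137357720), had a TPM of 148 and 194. Rac1, which activates the WAVE complex, had 52.5 and 75.9, and Rhoa, which drives actomyosin contraction, had 44.4 and 68.8. Cdc42 was the highest of the 3 and Rhoa the lowest in each pool, and every one was higher in pool 2. For Rac1 54.4% of windows of the GENCODE M21 transcript, which has 4159 bases where the counted Rac1-201 has 2315, recurred in the opposite-strand gene Daglb, which held 524 and 689 counts beside 4728 and 5884.

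Cdc42 is known to make alternative C-terminal ends. The brain form takes an earlier last exon and can be palmitoylated, which favours its place in spines, and the ubiquitous form takes the later exon. Cdc42-201, with the brain-type exon, held 68.6% of the gene's TPM in pool 1 and 58.1% in pool 2. Cdc42-202, with the ubiquitous exon, held 31.4% and 41.9%. By counts the brain-type transcript had 5562 and 5311 and the ubiquitous one 3785 and 5701, so the ubiquitous form had slightly more counts in pool 2 (51.8%). Per length, the brain-type form led in both pools. The alternative last coding exons, without the stop codon, are printed 5′ to 3′ from GENCODE M21 on mm10 (minus strand, chr4:137322533-137322619 and chr4:137321106-137321192), since they are the sequence that tells the forms apart. Capitals mark the 30 of 87 bases that differ.
Cdc42-201: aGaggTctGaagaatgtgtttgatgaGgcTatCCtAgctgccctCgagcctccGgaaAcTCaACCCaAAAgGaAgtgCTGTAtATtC
Cdc42-202: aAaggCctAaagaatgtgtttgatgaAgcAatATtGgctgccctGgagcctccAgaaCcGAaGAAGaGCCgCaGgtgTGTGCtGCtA
The exons matched at 65.5% of their bases, and the differences crowd at the 3′ end that encodes the tail. The transcripts also differ in their untranslated 3′ parts, so the shares rest on more than these bases.

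Of 27 other GTPases, exchange factors and kinases 16 were detected in both pools (59.3%, against 30.3% of protein-coding genes). The highest were Arhgap44, a GTPase-activating protein of the Rac1 and Cdc42 pathway, at a TPM of 18.0 and 17.0, Cdc42bpa, the Cdc42 effector kinase MRCK alpha, at 19.3 and 14.6, and Pak1, a kinase activated by Rac1 and Cdc42, at 14.2 in both. These regulators lay below all 3 GTPases in both pools.

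The spine side binders differed widely. Itpka, an inositol trisphosphate kinase that bundles spine actin (ENSMUSG00000027296.7, chr2:119742337-119751263), had a TPM of 35.5 and 39.2 from 2480 and 2359 counts. Dbn1, drebrin, a spine protein that stabilises filaments (ENSMUSG00000034675.13, chr13:55473429-55488111), had 0.89 and 1.58 from 102 and 157 counts. Itpka was thus above Dbn1 in every pool. Of 29 other bundling and spine scaffold genes 13 were detected in both pools (44.8%, against 30.3% of protein-coding genes). Mtss1, a membrane-bending actin binder, was highest at a TPM of 158 and 155, followed by Homer3, a postsynaptic scaffold of Purkinje cells, at 67.6 and 84.3 and by the bundler Pls3, plastin 3, at 18.4 and 43.7. Mtss1 exceeded Itpka in both pools. Over all 116 other actin genes 49 were detected in both pools (42.2%), 55 were under the threshold in both and 8 had 0 counts.

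The dominant transcript of a member was mostly the same in both pools, as it was for other genes. Of the members at a TPM of 10 or more in each pool with several annotated transcripts, 27 of 27 had the same dominant transcript in both pools, beside 93.7% of all such genes. By share of counts it was 25 of 27. The dominant transcript was not of protein-coding type in 3 of 26 members with a type (11.5%), beside 18.8% of protein-coding genes. These 3 were Pfn1, Arpc5l and Myh10. In genes of few counts the shares moved more. Capzb-203, whose last coding exon is distinct from that of the other transcripts, held 0 counts in pool 1 and 46.8% of the TPM in pool 2. The 0 allows up to 0.748% of the gene's 401 counts, a limit for counting error alone. It does not cover the estimated split of reads among transcripts. Capzb-204, which begins coding at the same exon, had 137.65 counts in pool 1 and 0 in pool 2. Arpc5-202 went from 58.2% to 19.9% on 155 and 257 counts of the gene.

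**Figure D3:**
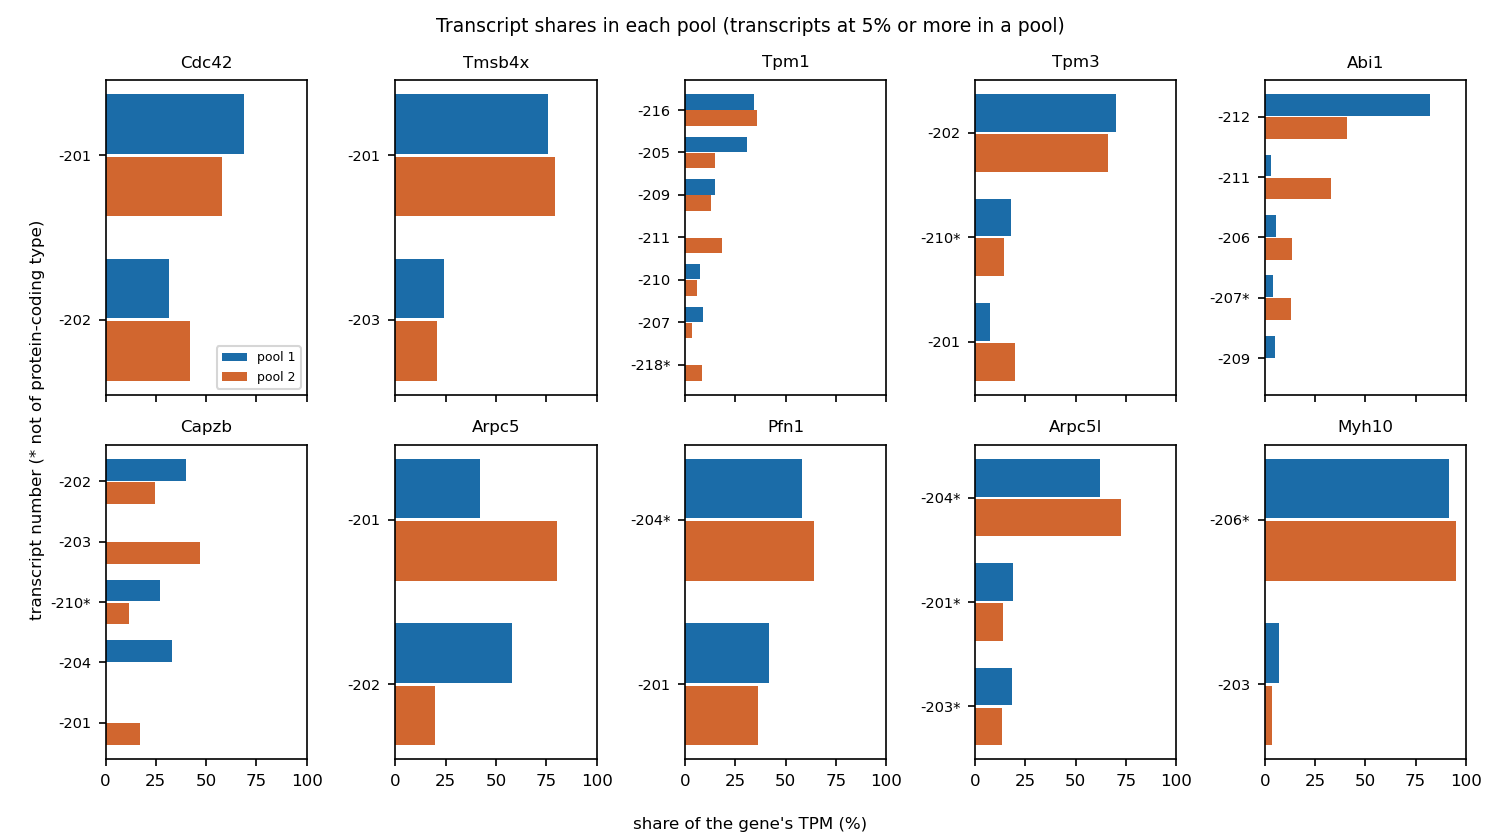
Share of each gene's TPM (percent, horizontal axis) held by its transcripts of 5% or more, for 10 members, in pool 1 (blue) and pool 2 (orange), with an asterisk on transcripts not typed as protein-coding. The bars of Cdc42, Tmsb4x and Myh10 keep their order between the pools, while those of Arpc5 and Capzb change places.

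Between the pools the members' median difference lay close to that of all detected genes. Of the 43 members detected in at least 1 pool, 30 were higher in pool 2 (69.8%) and 13 in pool 1, while 68.5% of all 8958 such genes were higher in pool 2. Taking TPM + 1 in pool 2 over pool 1, the median log2 ratio was 0.26 for members and 0.24 for all genes. Past 2-fold, 3 members were higher in pool 2 (6.98%, beside a background of 8.22%) and 0 in pool 1 (beside 2.08%), or 3 either way (beside 10.3%). With 1 library on each side these are descriptions of the libraries, without a test.

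The 3 members past 2-fold were all Arp2/3 subunits, Arpc1a with a log2 ratio of 1.15, Arpc4 with 1.12 and Arpc3 with 1.11. When counts were scaled by TMM, which centres most genes near 0 (median 0.04), their ratios were 0.93, 0.86 and 0.98, so none of these 3 passed 2-fold. With total gene counts, 3 members passed 2-fold higher in pool 2, beside 16.0% of all genes. With DESeq2 size factors 1 member did, beside 12.5%. Under TMM Cyfip1, at -1.11, was the only one of the 43 past 2-fold, beside 7.94% of all genes higher in pool 1 and 11.9% higher in pool 2. The other Arp2/3 subunits were not shifted in the same measure, with Arpc5 at 0.67, Arpc5l at 0.21, Arpc2 at 0.20, Actr2 at -0.10 and Actr3 at -0.18 on the TPM scale. The nearest member below 2-fold was Tmsb4x at 0.92, and the lowest was Cyfip1 at -0.63.

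By role, the median log2 ratio on the TPM scale was 0.52 for the GTPases, 0.37 for monomer binders and for capping genes, 0.29 for the spine side binders, 0.26 for the WAVE complex, 0.21 for actins and for Arp2/3 with the coronin, 0.17 for severing and -0.08 for myosins and tropomyosins. Most members with a long deposited gene length in pool 1 were higher in pool 1. Of the 5 members of 4 kb or more (Abi2, Cyfip1, Cyfip2, Myo5a and Nckap1) 1 was higher in pool 2, with a median of -0.36, while the 1579 genes of that length had a median of 0.26. Bergmann glia markers moved in the direction of most members, with 8 of 8 detected ones higher in pool 2, a median of 0.91 and 4 past 2-fold, while the Purkinje markers had a median of -0.13. The part of glial RNA in the members' ratios was not tested.

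**Figure D4:**
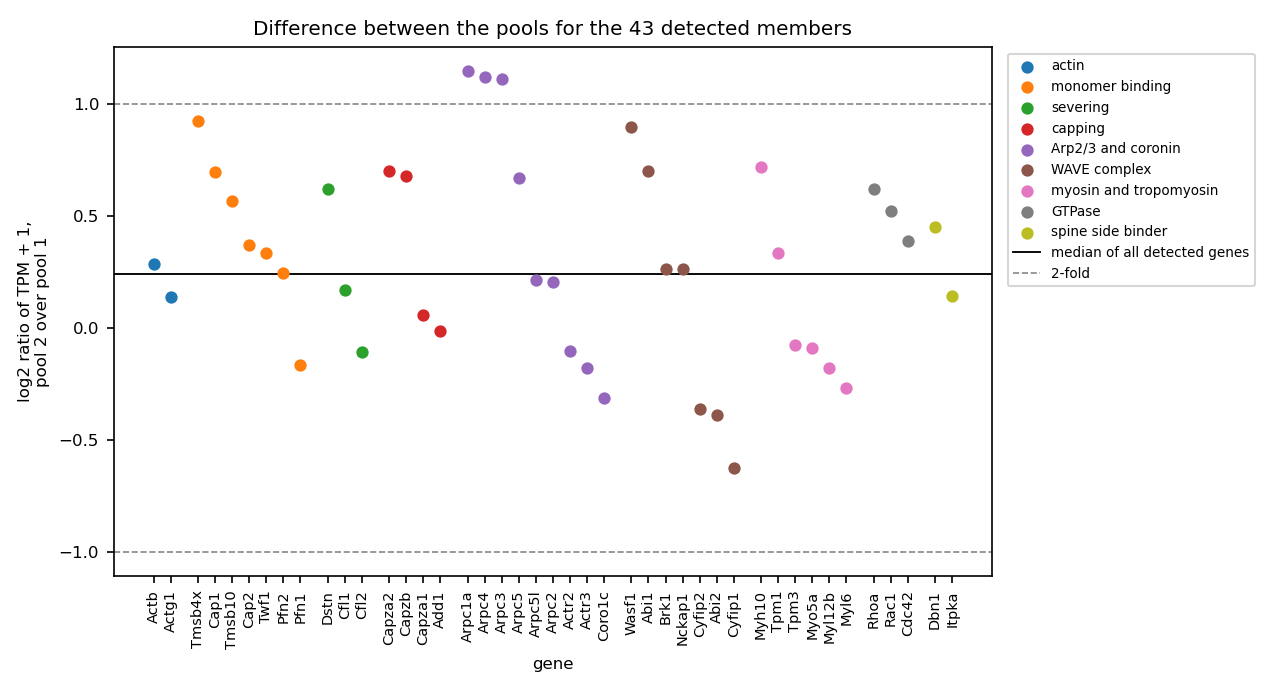
The log2 ratio of TPM + 1 (pool 2 divided by pool 1) for the 43 members detected in at least 1 pool, coloured and grouped by role, with the median of all detected genes as a solid line and 2-fold as dashed lines. Arpc1a, Arpc4 and Arpc3 lie above the upper dashed line, and no member lies below the lower one.

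The precision of these levels differed by member. Of the 49 longest coding transcripts, 28 had no 100-base window that recurred in another gene and 21 had some, with 6 over 25% (Capza1, Rac1, Actg1, Tpm3, Myl12b and Arpc1b). For Myl12b most of this was with another GENCODE M21 identifier of the same name on the same strand, and Myl12a shared 1.03% of its windows. These shares describe GENCODE M21 transcripts, which can differ from the M4 ones that were counted. For Tpm3, the related gene Tpm3-rs7 held 45.7% of its windows and 198 and 182 counts beside 846 and 731. No window was shared between members of a paralog family. The deposited posterior SD of the count, which reflects uncertain read assignment, was 0 in both pools for 30 members and at most 28.7 counts. For 19 members, counting the second Myl12b identifier, exons overlapped those of another gene, and reads of such neighbours on the opposite strand cannot be told apart where strand was not used.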

How the data were processed

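Total RNA of each pool was made into cDNA with a SMARTer Ultra Low kit and carried spike-in RNA, per the labels. The text file deposited beside the tables of each sample says that they were made for each library on mm10 with GENCODE M4. The aligner, the quantifier and the strand setting are not stated in the sources at hand. According to their headers, the deposited tables hold expected counts (estimated reads), TPM, FPKM and posterior means, and the deposited transcript tables give each transcript a percent of its gene's TPM. The deposited effective length was the transcript length minus 99 bases, so short transcripts gain most per read. GENCODE M21 on mm10, a later release, gave symbols, transcript types and positions. Mapping bias towards the C57Bl allele of the cross was not tested.

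The 49 members and all lists were chosen with earlier results of these data known. By rule all members are named, with the 3 highest genes of each list of other actin genes, and the same of Purkinje and Bergmann glia markers may be. Cnn1, the named microglial markers, Rpl35 and other genes that overlap members or share their sequence were named after their values were seen. Levels were compared as TPM, with detection at a TPM of 1 and ratios on log2(TPM + 1), which understates changes of low genes. With 1 group no differential test was run. Count ratios used TMM (edgeR 4.0.16), DESeq2 1.42.0 size factors, total counts or spike-ins, adding 0.5 to each count, and expected counts were rounded for these. Only the TMM ratio step was run on simulated counts, with large planted changes in well-counted genes. Those counts held no variation between pools beyond counting error. The ratios on log2(TPM + 1) were not simulated. Shares of paralogs and transcripts are means over pools. The window search set each 100-base window of the longest coding transcript of a member against both strands of GENCODE M21 transcripts of other genes. The labels name no molecular identifiers.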

Additional observations from a re-analysis of the deposited data

How the results depend on the processing

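The median member level of 4.37 was 4.68 with FPKM and 4.91 over the members detected in both pools, and it ran from 4.28 to 4.71 without one of the pools. Posterior means and a pseudocount of 0.1 moved it by less than the SD between the pools. So did leaving out transcripts typed as not protein-coding (4.10), an alternative chosen after seeing the data, under which 40 members were detected, Arpc5l and Coro1c being lost. The other alternatives gave 36 to 47 detected members. The median pool ratio of 0.26 became -0.78 with spike-in scaling, where all genes had a median of -0.74. There 13 of 43 members passed 2-fold, all higher in pool 1, and 3 of 43 were higher in pool 2. Of all genes, 33.7% passed 2-fold higher in pool 1 and 4.10% higher in pool 2. The median ratio of members was 0.00 with TMM, where 1 member passed 2-fold (higher in pool 1) and 23 were higher in pool 2. Of all genes, 7.94% passed 2-fold higher in pool 1 and 11.9% higher in pool 2 with TMM. With DESeq2 size factors 1 member passed 2-fold in each direction, beside 12.5% of all genes higher in pool 2 and 7.57% higher in pool 1. With total gene counts 3 members passed it higher in pool 2 and 0 in pool 1, beside 16.0% and 5.78% of all genes. Under each count scaling the members lay 0.04 below all genes (a difference of -0.04 in medians). That the scalings give the same difference is fixed by construction, since each shifts every gene by the same amount. The cause of the spike-in shift was not tested, and spike-ins took 0.211% and 0.411% of the counts. Of 70 alternatives for the share of a leading paralog, 7 moved by more than the SD between the pools, 6 of them with counts in place of TPM. Leaving out a pool could not move a mean share past that SD, since both pools lie closer to their mean than the SD. FPKM is proportional to TPM within a library, so shares by FPKM were nearly fixed as well. These alternatives give no measure of stability. The leader by mean share was kept in 13 or 14 of 14 families, and it was Abi1 without pool 1. Transcripts of protein-coding type alone were not among these alternatives, and by them Arpc5 lay above Arpc5l in both pools. Separated neighbours numbered 12 with FPKM and 13 with posterior means, and members with no shared window 31 when the transcript of highest TPM was searched, alternatives also chosen after seeing the data. Same dominant transcripts were 26 of 27 with posterior means and 39 of 41 without a filter. No paired analysis was possible because there was a single group. Depth limits Limk1, Arpc1b, Gsn, Add2 and Ssh2, each under 100 counts in both pools.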
